A study of Mus musculus with 19 samples.

Results

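Interferon-stimulated genes are the genes that cells switch on when interferon, the cytokine released on virus infection and other danger signals, binds its receptor. Here they were followed in the dorsal root ganglia of mice, which house the cell bodies of sensory neurons. The genes were a list of 42 symbols matched by name to the gene table, and all 42 were found among its 36682 genes. All 42 also passed the filter on low counts that left 22778 genes for testing. The lowest count of any of them in any library was 17.

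The 19 libraries came from male mice that were all homozygous for the MaFIA (macrophage Fas-induced apoptosis) transgene, controls included. The groups crossed surgery with drug. Mice with DMM (surgical destabilization of the medial meniscus, a model of knee osteoarthritis, sampled 8 weeks after surgery) received AP20187 (5 libraries, samples 58 to 62) or vehicle (5 libraries, samples 32, 33, 34, 63 and 64). Naive mice of matching age received AP20187 (4 libraries, samples 1, 3, 4 and 5) or vehicle (5 libraries, samples 1 to 5). AP20187 or vehicle was injected into the peritoneum once a day on consecutive days. For each library, L3-L5 ganglia ipsilateral to the surgery were pooled for bulk poly(A) RNA sequencing. The labels do not say whether a library stands for 1 mouse, so p-values measure the spread between these libraries, which may in part be technical. As a model the strain has a limit that bears on these genes: the transgene is driven by the Csf1r promoter, so the drug acts on monocytes and macrophages of the whole body and not of the ganglion alone. AP20187 links the transgene's Fas domains and so triggers death of the cells that carry them.

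Type I interferons (alpha and beta) signal through the receptor pair IFNAR1 and IFNAR2 and the kinases JAK1 and TYK2. These activate a factor that contains STAT2 and IRF9 and binds the interferon-stimulated response element in promoters. Interferon gamma signals through IFNGR1 and IFNGR2, JAK1 and JAK2, and acts on genes with a gamma-activated site. In sensory ganglia, neurons, satellite glia, endothelium and macrophages can all respond to interferon, and a bulk library sums over them. In such libraries, fewer cells of a type and less RNA per cell cannot be told apart.

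The response element was looked for in RefSeq promoters (mouse build GRCm38.p6, an older build than that of the gene table) as GAAA, any 2 bases and GAAA again, on either strand, in the 250 bases before each transcript start. Of the 42 genes, 32 had an entry, and 16 of the 32 (50%) held the motif, against 936 of 27025 genes of the promoter table (3.46%). The gamma-activated site, searched as TTCNNNGAA on either strand, was in 8 of the 32 (25%) and in 2197 of the 27025 (8.13%). A match is a description of the letters and not a bound site. The 6 promoters printed here belong to genes that moved in opposite directions under AP20187 in DMM mice. The capitals mark the response element, which reads TTTC, any 2 bases and TTTC where it lies on the opposite strand, and overlapping matches form 1 run of capitals. Oas1a (chr5:120907526-120907775, minus strand), Oas3 (chr5:120777660-120777909, minus strand) and Trim30a (chr7:104465194-104465443, minus strand) were higher with the drug.
Oas1a: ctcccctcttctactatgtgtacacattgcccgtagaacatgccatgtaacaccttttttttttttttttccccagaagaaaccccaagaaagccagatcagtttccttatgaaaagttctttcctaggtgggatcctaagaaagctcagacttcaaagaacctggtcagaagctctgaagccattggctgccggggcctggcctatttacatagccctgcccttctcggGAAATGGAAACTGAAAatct
Oas3: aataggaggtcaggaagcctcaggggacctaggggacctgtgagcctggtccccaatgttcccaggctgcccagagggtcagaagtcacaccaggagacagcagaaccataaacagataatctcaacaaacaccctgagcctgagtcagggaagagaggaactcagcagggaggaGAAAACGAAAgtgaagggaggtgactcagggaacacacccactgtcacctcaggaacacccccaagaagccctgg
Trim30a: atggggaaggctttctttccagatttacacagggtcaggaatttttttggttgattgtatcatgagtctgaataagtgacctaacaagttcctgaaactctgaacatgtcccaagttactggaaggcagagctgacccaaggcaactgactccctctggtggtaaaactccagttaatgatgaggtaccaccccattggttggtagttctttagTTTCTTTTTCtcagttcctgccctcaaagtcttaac
Rsad2 (chr12:26456453-26456702, minus strand), Igtp (chr11:58199306-58199555, plus strand) and Ifit3b (chr19:34607707-34607956, plus strand) were lower.
Rsad2: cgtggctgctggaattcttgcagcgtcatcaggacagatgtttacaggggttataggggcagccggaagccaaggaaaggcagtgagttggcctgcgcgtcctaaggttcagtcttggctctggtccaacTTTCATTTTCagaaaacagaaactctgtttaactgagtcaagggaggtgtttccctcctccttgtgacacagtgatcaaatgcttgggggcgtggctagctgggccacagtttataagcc
Igtp: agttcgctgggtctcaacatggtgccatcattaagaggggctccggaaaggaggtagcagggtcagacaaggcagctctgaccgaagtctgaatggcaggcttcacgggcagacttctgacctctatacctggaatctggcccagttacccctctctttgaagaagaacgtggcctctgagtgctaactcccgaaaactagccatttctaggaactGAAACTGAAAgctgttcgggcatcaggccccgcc
Ifit3b: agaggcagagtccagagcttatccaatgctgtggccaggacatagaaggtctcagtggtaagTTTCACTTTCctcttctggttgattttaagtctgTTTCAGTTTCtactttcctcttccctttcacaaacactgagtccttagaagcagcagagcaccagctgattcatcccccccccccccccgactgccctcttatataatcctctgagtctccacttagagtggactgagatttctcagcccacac
In Oas1a the last match began 14 bases before the start and overlapped another that began 20 bases before the start, while in Ifit3b the matches began 188 and 154 bases before the start. Both directions of change were thus called among these printed genes. In that comparison 9 of the 42 genes were higher and 4 lower, against 11.3% and 12.4% of all tested genes. The lower calls on Rsad2, Igtp and Ifit3b were each lost without DMM vehicle library 34. They were also lost without DMM AP20187 library 60 or library 62.

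Per length, the genes spanned a wide range in naive vehicle ganglia. Ifi27, a mitochondrial interferon-induced protein, had the highest level at 72.8 ± 22.2 FPKM (SD, n = 5), followed by Ifitm3, a membrane protein that blocks virus entry, at 36.9 ± 16.3 FPKM. Oas1g was the lowest at 0.295 ± 0.261 FPKM, next to Ifi44 at 0.347 ± 0.2005 FPKM, and these neighbours did not differ beyond their spread. Of the 42 genes, 33 had a mean of at least 1 FPKM in that group. Libraries held 60984830 to 74691396 counts, and every gene of the list stood above the 3 counts per library taken as the floor of detection. Markers of the tissue were present: no sensory neuron, satellite glia or Schwann cell marker was at 0 in any library.

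The first question was whether the ganglia of operated mice differed from naive ganglia under vehicle. All 42 genes had a higher fitted level in DMM (39 to 42 over the alternatives run), against 53.6% of all tested genes, and the median log2 fold change was 0.63, against 0.03 over all genes. None passed the test: 0 of the 42 had an adjusted p under 0.05 by edgeR, and 0% of all tested genes did. At an unadjusted p under 0.05 there were 21 of the 42, all higher, against 1.28% of all genes higher and 1.66% in either direction. DESeq2 and limma voom also called 0 of the 42, with 22 and 24 at an unadjusted p under 0.05. With limma on log2(FPKM + 1), where fold changes of low genes are understated, none was called, the median was 0.43 and 11 genes reached an unadjusted p under 0.05. On log2(FPKM + 0.1) none was called, the median was 0.55 and 13 reached it. For none of the 42 did the DMM libraries all lie above the naive ones, a pattern that 0.127% of all genes showed.

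The values by library show where the difference lay. Irf7, the transcription factor that amplifies type I interferon production, stood at 7.95, 7.604, 14.8, 8.37 and 6.45 CPM in naive vehicle samples 1 to 5 (CPM, counts scaled to a common library size by TMM). In DMM vehicle samples 32, 33, 34, 63 and 64 it stood at 4.87, 11.5, 30.9, 22.3 and 33.7 CPM, and values of these groups are given in that order from here on. Libraries 34, 63 and 64 were above every naive library, while library 32 was below them all, and the ranges overlapped. The log2 fold change was 1.19 (SE 0.39), with an unadjusted p of 0.0068 and an adjusted p of 1.

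Phf11d, a PHD finger gene induced by interferon, had 2.19, 1.21, 3.61, 2.27 and 1.16 CPM in naive vehicle. In DMM vehicle it had 2.48, 2.43, 7.34, 4.91 and 5.61 CPM. Libraries 34, 63 and 64 again exceeded all 5 naive ones. Its log2 fold change of 1.12 (SE 0.36) had the smallest unadjusted p of the 42 genes, 0.00622. Usp18, the protease that strips ISG15 from proteins and damps receptor signalling, had 4.64, 2.597, 6.11, 5.23 and 3.45 CPM in naive vehicle and 3.53, 7.89, 25.95, 6.07 and 8.88 in DMM vehicle. Here 1 library stood far above the rest: with all libraries the log2 fold change was 1.25 (SE 0.43), and without library 34 it was 0.58. Isg15, the ubiquitin-like protein that Usp18 removes, showed another order, with 5.46, 5.05, 7.37, 4.89 and 3.78 CPM in naive vehicle and 3.41, 5.49, 11.8, 15.1 and 21.6 in DMM vehicle. For Isg15 the highest library was 64, and its log2 fold change was 1.11 (SE 0.42).

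**Figure D1:**
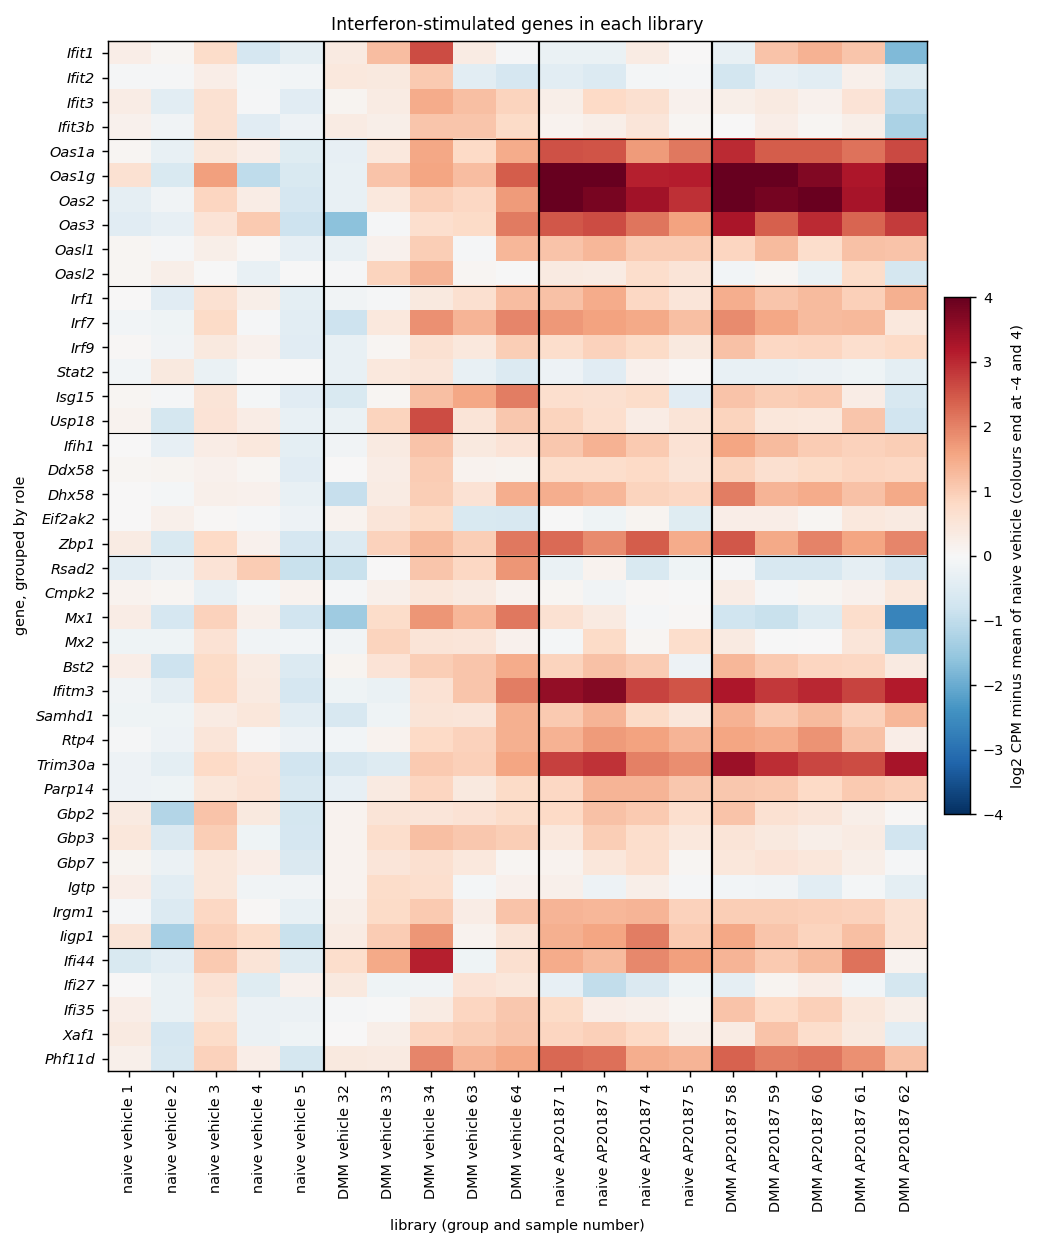
Each cell gives log2 CPM of 1 interferon-stimulated gene (vertical axis, ordered by role) in 1 library (horizontal axis), minus that gene's mean over the 5 naive vehicle libraries. Most cells of DMM vehicle samples 34 and 64 are red and most of sample 32 are pale or blue, and Oas1a, Oas1g, Oas2, Oas3, Ifitm3 and Trim30a are the darkest in both AP20187 groups.

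Among the IFIT proteins, which bind foreign RNA and block its translation, Ifit1 had 29.6, 26.3, 40.7, 15.4 and 18.9 CPM in naive vehicle and 31.5, 57.97, 149.7, 30.8 and 24.1 in DMM vehicle, so that libraries 33 and 34 lay above the naive range and libraries 32, 63 and 64 within it. Its log2 fold change was 1.17 (SE 0.52). Ifit3 and Ifit3b, neighbours on chromosome 19 with near-identical sequence between which reads may be split uncertainly, had log2 fold changes of 0.84 (SE 0.30) and 0.71 (SE 0.26). Ifit2 had 0.28 (SE 0.25). Of the DMM vehicle libraries, Ifit2 was 35.7 in 63 and 30.1 in 64, which lay under the lowest naive value of 44.5.

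The OAS enzymes make the 2-5A messenger that activates RNase L. Oas1a (chr5:121034319-121045584 in the table's coordinates, build GRCm39 per the submitters' processing notes) had 3.74, 2.86, 4.85, 4.23 and 2.51 CPM in naive vehicle and 2.82, 4.69, 10.3, 6.17 and 9.88 in DMM vehicle. Libraries 34, 63 and 64 exceeded every naive library, and the log2 fold change was 0.90 (SE 0.30). Oas1g lies in the same cluster and is a close copy of Oas1a, so that the split of reads between them is uncertain. The log2 fold change of Oas1g was 1.08 (SE 0.48), that of Oas2 0.77 (SE 0.34) and that of Oas3 0.64 (SE 0.48). The OAS-like genes Oasl1 and Oasl2 had 0.55 (SE 0.27) and 0.56 (SE 0.27).

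Of the transcription factors, Irf1, which is induced by interferon gamma, had a log2 fold change of 0.45 (SE 0.26), and Irf9, the DNA-binding part of the type I factor, had 0.40 (SE 0.20). Stat2, its partner, had the smallest difference of all 42 genes: 56.5, 79.6, 51.04, 60.2 and 60.3 CPM in naive vehicle and 49.2, 82.3, 85.5, 49.97 and 41.5 in DMM vehicle, with a log2 fold change of 0.00 (SE 0.19). Among the sensors of viral nucleic acid, Zbp1, which senses Z-form nucleic acid, had 2.801, 1.48, 3.89, 2.53 and 1.403 CPM in naive vehicle and 1.53, 4.28, 5.49, 4.44 and 9.67 in DMM vehicle, for a log2 fold change of 1.07 (SE 0.38). The RNA helicases Ifih1 (MDA5), Ddx58 (RIG-I) and Dhx58 (LGP2) had log2 fold changes of 0.49, 0.35 and 0.66. Eif2ak2, the kinase PKR that stops translation on double-stranded RNA, had 0.13.

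The 10 antiviral effectors had log2 fold changes from 0.22 to 1.16, and 4 of them had an unadjusted p under 0.05. Ifitm3 had 21.4, 18.6, 41.7, 30.8 and 14.9 CPM in naive vehicle and 20.9, 19.6, 35.8, 50.97 and 98.4 in DMM vehicle, with library 64 far above the others. Rsad2 (viperin, a radical-SAM enzyme that makes a chain-terminating nucleotide) was also highest in library 64, with 12.97, 24.2, 51.3, 42.3 and 81.7 in DMM vehicle against 17.7, 20.2, 34.6, 48.6 and 12.7 CPM in naive vehicle. Samhd1, which depletes the nucleotide pool, had 41.4, 57.02, 92.2, 90.5 and 174 CPM in DMM vehicle against 56.9, 57.5, 80.8, 89.4 and 47.9 in naive vehicle. Bst2 (tetherin, which holds budding virions on the cell) had 9.25, 12.6, 16.9, 18.4 and 24.2 CPM against 10.4, 4.84, 14.8, 10.8 and 5.89. In these 3 genes library 64 was the highest of the DMM libraries. The 2 Mx genes are listed in the table with a loss-of-function coding biotype. Mx1, a GTPase that traps viral ribonucleoprotein when intact, had 0.817, 3.69, 7.46, 5.56 and 9.597 CPM in DMM vehicle against 2.72, 1.37, 4.21, 2.55 and 1.296 in naive vehicle. The 6 interferon-inducible GTPases, which attack the vacuoles of intracellular microbes, ranged from 0.27 to 0.72. Gbp2, with the highest mean CPM of them, had 0.27 (SE 0.32). Irgm1, a regulator of that group, had 12.9, 9.27, 24.04, 13.9 and 10.9 CPM in naive vehicle and 15.7, 22.8, 27.5, 16.4 and 29.3 in DMM vehicle, with naive library 3 inside the DMM range and a log2 fold change of 0.65 (SE 0.23). Iigp1, another GTPase of the group, and Gbp7 had 0.62 (SE 0.39) and 0.33 (SE 0.19), and Xaf1, a binding partner of the apoptosis inhibitor XIAP, had 0.63 (SE 0.30). Ifi44 had the largest fitted difference of the 42, 1.47 (SE 0.52), with 3.16, 5.52, 16.9, 1.72 and 3.03 CPM in DMM vehicle against 1.29, 1.45, 4.04, 2.78 and 1.35 in naive vehicle, so that library 34 stood apart.

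The libraries of the DMM vehicle group differed widely from each other. The mean log2 CPM over the 42 genes was 4.62 in library 34, 4.52 in 64, 4.14 in 63, 3.94 in 33 and 3.36 in 32. In naive vehicle it was 4.10 in library 3, 3.64 in 4, 3.59 in 1, 3.22 in 2 and 3.11 in 5. Library 32 thus lay within the naive range, below the naive median of 3.59. Of the 10 vehicle libraries, library 64 held the highest value for 20 of the 42 genes and library 34 for 18, and DMM libraries held it for 40 in all. The same count over all tested genes was not made, so these counts are not read as particular to the 42. Libraries 34 and 64 differed by role: library 34 led for the mean of the IFIT proteins (6.18 against 4.86 in library 64), and library 64 led for the mean of the antiviral effectors (4.98 against 4.54).

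Marker sums of blood and marrow cells also differed between these libraries. Summed CPM over 11 markers of neutrophils and their precursors, none of them at 0 in any library, was 361 to 7213 in DMM vehicle, highest in library 64, and 757 to 2061 in naive vehicle. The sum over 9 macrophage markers was 615 CPM in library 64 and 204 in library 34, within a range of 150.3 to 615 in DMM vehicle and 81.0 to 448 in naive vehicle, where library 3 was highest. Fitted levels of all 11 neutrophil markers and all 9 macrophage markers were higher in DMM, with medians of 1.19 and 0.58 on the log2 scale, and none passed. Other blood cell lists moved the same way without a marker passing: 6 of 6 plasmacytoid dendritic markers, of which Bst2 is also one of the 42 genes, were positive (median 0.72), as were 4 of 5 monocyte (0.71), 7 of 8 T and NK (0.71), 7 of 7 erythroid (0.66) and 8 of 9 B lineage markers (0.55). The sum over 5 plasmacytoid dendritic markers other than Bst2 ranged from 39.9 to 101 CPM in DMM vehicle and from 33.0 to 76.0 in naive vehicle. Library 34 had the highest mean of the 42 genes with macrophage and neutrophil sums below those of libraries 63 and 64. Both of its sums were above those of libraries 32 and 33. In libraries 32, 33, 63 and 64 the mean of the 42 genes rose in the order of the neutrophil sum (361, 603, 2464 and 7213 CPM). In naive vehicle the mean did not follow that order. There it was lowest in library 5 and highest in library 3, as was the macrophage sum (81.0 and 448 CPM). Summed CPM of 7 erythroid markers was 1596 to 26681 in DMM vehicle, highest in library 64, and 3335 to 13299.6 in naive vehicle. The sensory neuron marker sum was 2870 CPM in library 64 and 6290 to 8038 CPM in the other DMM vehicle libraries, and all 8 neuron markers were negative for DMM without passing, with a median of -0.21. The skeletal muscle marker sum was 1766 CPM in library 32 and 13.8 to 226 CPM in the other 4, and all 6 muscle markers were positive without passing, with a median of 1.49. The part of these cells in the difference between groups was not tested.

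**Figure D2:**
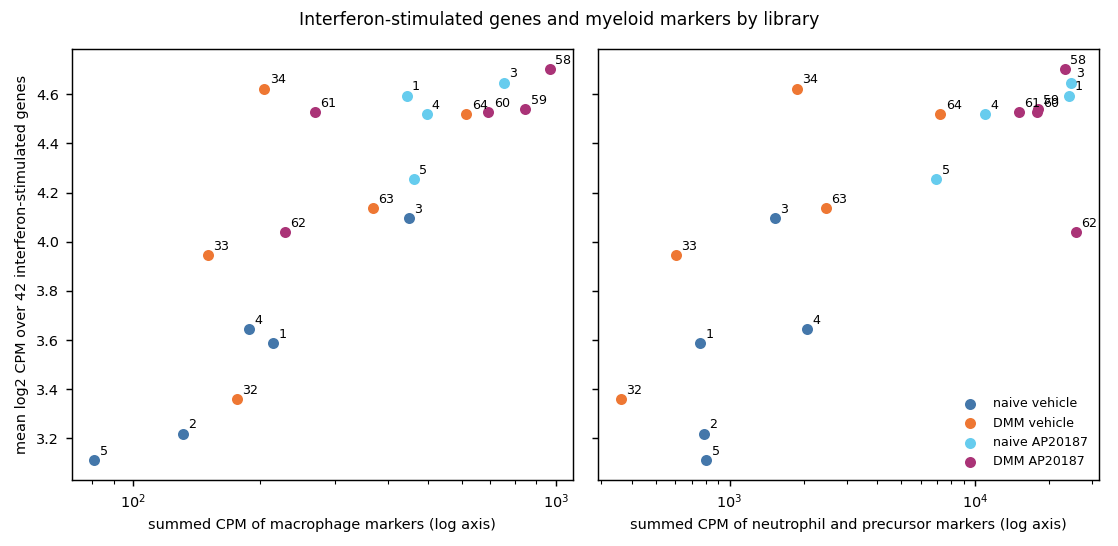
Each point is 1 library, labelled with its sample number and coloured by group; the vertical axis is the mean log2 CPM over the 42 genes and the horizontal axes (log scale) are the summed CPM of macrophage markers (left) and of neutrophil and precursor markers (right). DMM vehicle samples 34 and 64 have means of 4.62 and 4.52 at macrophage sums of 204 and 615 CPM. The AP20187 libraries lie at the right of the neutrophil panel, from 6942 to 25750 CPM.

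Leaving out 1 library at a time kept the count of passing genes at 0, with 40 to 42 of the 42 higher and a median log2 fold change from 0.45 (without DMM library 64) to 0.81 (without naive library 3). The count at an unadjusted p under 0.05 was 11 without DMM library 34, 12 without DMM library 64 and 11 without naive library 2 or 5, and it was 32 without DMM library 32. Sample numbers of the DMM vehicle group fall into separate runs (32 to 34, and 63 and 64), and the labels do not say what sets them apart. With samples 32 to 34 alone in that group, 0 of the 42 passed and the median was 0.46. With samples 63 and 64 alone, the median was 0.91 and 5 of the 42 passed (Irf7, Isg15, Zbp1, Ifitm3 and Oas1a, named after their values were seen), against 2.21% of all genes. Their adjusted p by edgeR were 0.0485 to 0.0491, close to the threshold. Of the DMM vehicle libraries, 63 and 64 also had the highest macrophage (369 and 615 CPM), neutrophil (2464 and 7213) and erythroid sums (11583 and 26681). The part of these cells was not tested.

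The drug comparison was made next, AP20187 against vehicle in naive mice. By edgeR, 19 of the 42 genes were higher and 0 lower, against 8.61% of all tested genes higher and 2.57% lower. At an unadjusted p under 0.05 there were 23 of the 42, against 28.8% of all genes, of which 1 was lower (Ifi27 at -0.53), and DESeq2 and limma voom also called 0 lower. The median log2 fold change was 0.68, against -0.07 over all genes, and 35 of the 42 were positive, against 46.4% of all genes. With limma on log2(FPKM + 1) the median was 0.44 and 14 genes passed. For 20 of the 42 all AP20187 libraries lay above all vehicle libraries, a pattern seen in 9.39% of all genes. By role, 5 of 6 OAS genes, 4 of 5 sensors, 3 of 4 transcription factors, 4 of 10 effectors and 2 of 6 GTPases rose, while 0 of 4 IFIT genes and 0 of the 2 genes of the ISG15 system passed, nor did any of these 6 at an unadjusted p under 0.05. Whether roles differed from each other was not tested.

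Oas2 (chr5:120868398-120887918) rose most. It had 43.99, 36.8, 27.2 and 20.2 CPM in naive AP20187 samples 1, 3, 4 and 5 (the order used from here on) against 2.08, 2.41, 4.84, 3.29 and 1.68 in naive vehicle. Every drug library was above every vehicle library, with a log2 fold change of 3.48 (SE 0.37) and an adjusted p of 3.39e-05. Ifitm3 (chr7:140589499-140590683) had 271, 304, 154 and 136 CPM with the drug, against a highest vehicle value of 41.7, for a log2 fold change of 3.09 (SE 0.43). Its level per length reached 271 ± 92.4 FPKM (SD, n = 4), the highest of the 42 genes in that group. Oas1a had 20.5, 20.1, 11.5 and 15.1 CPM and a log2 fold change of 2.21 (SE 0.32), and Oas1g had 8.99, 9.07, 4.74 and 4.91 CPM and 3.28 (SE 0.53). Trim30a (chr7:104058232-104114400), a ubiquitin ligase that restrains Toll-like receptor signalling, had 71.2, 79.1, 43.5 and 38.7 CPM against 9.36, 8.18, 18.5, 15.5 and 6.35 in vehicle, and rose by a log2 fold change of 2.33 (SE 0.42).

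Smaller rises were measured for Rtp4, a chaperone that tempers the interferon response, at 1.4999, and for Zbp1 at 1.95. Phf11d rose by 1.76, Irf7 by 1.47, Irgm1 by 1.16 and Parp14, an ADP-ribosyltransferase, by 1.10. Irf7 had 28.97, 26.2, 24.8 and 20.1 CPM with the drug, all above the highest vehicle value of 14.8. The helicases Ifih1 and Dhx58 rose by 1.02 and 1.14, Oas3 by 2.09 and Irf1 by 0.98. Ddx58 rose by 0.66 and Oasl1 by 1.12. Irf9 rose by 0.67 and Iigp1 by 1.32, both close to the threshold with adjusted p by edgeR of 0.0499 and 0.0447. Against these, Isg15 had 8.18, 8.01, 8.55 and 3.82 CPM with the drug and 5.46, 5.05, 7.37, 4.89 and 3.78 with vehicle, and did not pass, with a log2 fold change of 0.43 (SE 0.44). Ifit1 at -0.11, Ifit2 at -0.26 and Stat2 at -0.10 were below 0 without passing. Without naive AP20187 library 3, the count of genes that passed was 11.

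**Figure D3:**
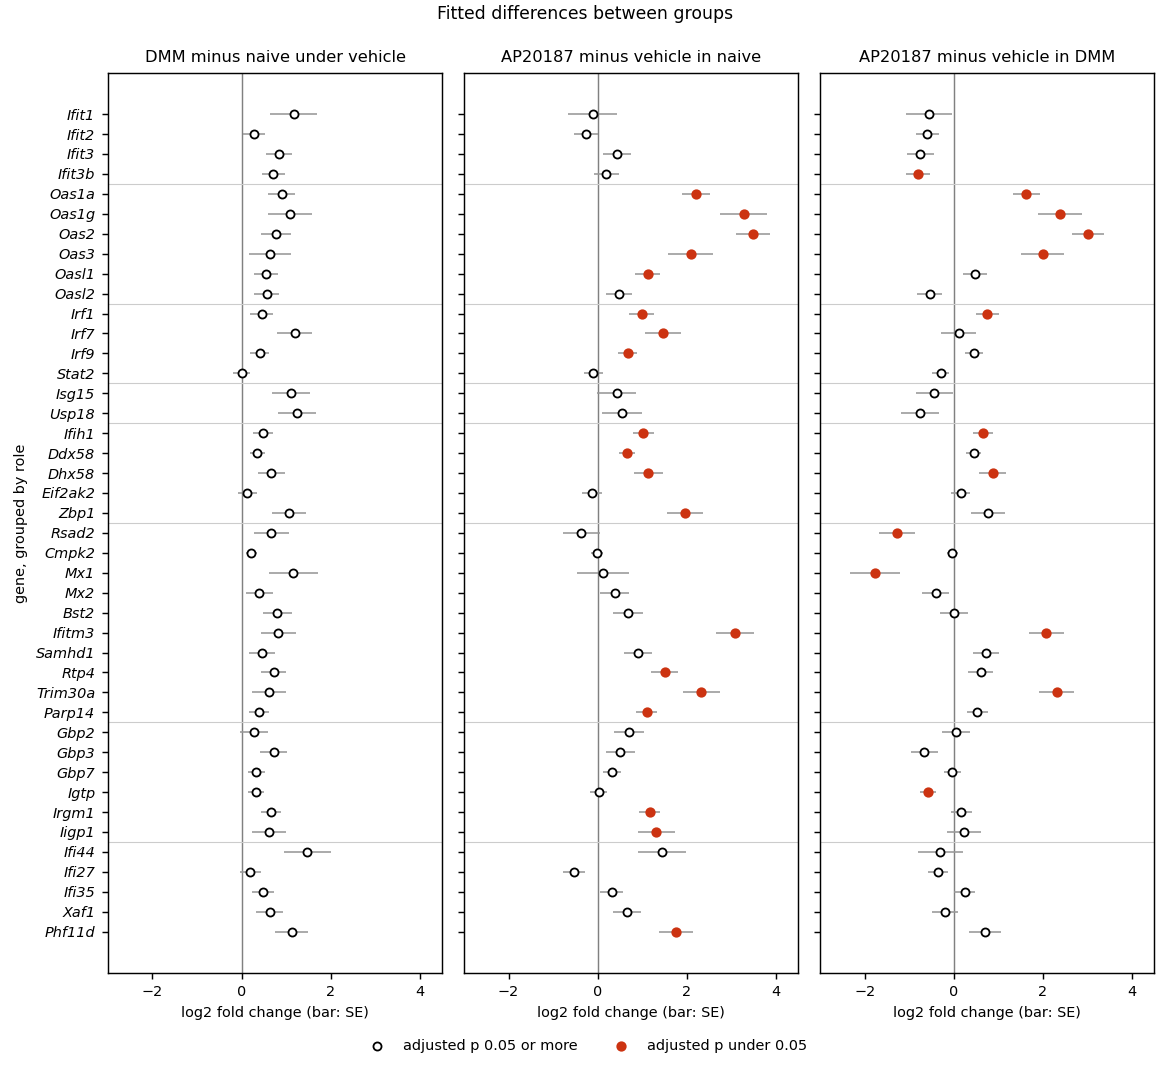
Fitted log2 fold changes (horizontal axis, bars are 1 standard error) of the 42 genes (vertical axis, by role) in 3 comparisons, with filled points for an adjusted p under 0.05. No point is filled for DMM against naive under vehicle, 19 are filled to the right for AP20187 in naive mice, and 9 to the right and 4 to the left for AP20187 in DMM mice.

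In DMM mice, AP20187 against vehicle gave 9 of the 42 genes higher and 4 lower, against 11.3% of all tested genes higher and 12.4% lower. The median log2 fold change was 0.13, against -0.10 over all genes, and 24 of the 42 were positive, against 44.7% of all genes. This median moved with single libraries: it was 0.02 without DMM AP20187 library 58, 0.03 without DMM vehicle library 32, 0.08 without 63, 0.19 without DMM AP20187 library 62 and 0.27 without DMM vehicle library 34, and 21 to 28 genes were positive with 1 library left out. It was 0.20 with limma voom, 0.19 with limma on log2(FPKM + 0.1) and 0.24 with DMM vehicle samples 32 to 34 alone. At an unadjusted p under 0.05 there were 21 of the 42, against 37.3% of all genes. For 6 of the 42 the ranges did not overlap, all higher, against 8.71% of all genes. All 9 genes that rose in DMM mice were among the 19 that rose in naive mice: Oas1a, Oas1g, Oas2, Oas3, Irf1, Ifih1, Dhx58, Ifitm3 and Trim30a. The other 10 of the 19 did not pass in DMM mice. By role, 4 of 6 OAS genes, 2 of 5 sensors, 1 of 4 transcription factors and 2 of 10 effectors rose, while 1 of 4 IFIT genes, 2 of 10 effectors and 1 of 6 GTPases fell. The count of 13 genes that passed was 8 without DMM AP20187 library 58 or 59 or DMM vehicle library 34, 7 without DMM AP20187 library 62 and 6 without library 60. By direction, 6 to 14 were higher and 0 to 7 lower with 1 library left out.

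Oas2 had 50.99, 37.6, 41.5, 26.3 and 40.6 CPM in DMM AP20187 samples 58 to 62 against 2.19, 3.58, 5.19, 4.700 and 8.76 in DMM vehicle. The groups were apart by a wide margin, with a log2 fold change of 3.01 (SE 0.36) and an adjusted p of 5.44e-05. Trim30a had 115, 82.8, 68.8, 65.2 and 106 CPM against 6.83, 7.51, 21.9, 20.7 and 31.6 and a log2 fold change of 2.30 (SE 0.40). Ifitm3 had 222, 169, 191, 155 and 216 CPM against 20.9, 19.6, 35.8, 50.97 and 98.4, and rose by 2.08. Oas1a, with 28.1, 18.9, 19.1, 15.9 and 22.1 CPM, rose by 1.62, Oas1g by 2.39 and Oas3 by 1.99. For these 6 genes every drug library was above every vehicle library. Irf1 at 0.75, Ifih1 at 0.65 and Dhx58 at 0.87 passed with overlapping ranges. The call on Dhx58 was lost in 12 of 20 alternatives and that on Irf1 in 11 of 20, with adjusted p up to 0.407 and 0.657. Both were lost without any 1 of DMM AP20187 libraries 58, 59, 60 and 62 or DMM vehicle libraries 32, 33, 34 and 63, with library size only, with no filter on low counts and with DMM vehicle samples 63 and 64 alone. Ifih1 was not refitted singly in this comparison.

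The 4 genes that fell were Mx1, Rsad2, Ifit3b and Igtp. Rsad2 (chr12:26492745-26506451) had 23.2, 15.4, 15.3, 18.6 and 14.8 CPM in DMM AP20187 against 12.97, 24.2, 51.3, 42.3 and 81.7 in DMM vehicle, and fell with a log2 fold change of -1.28 (SE 0.40) and an adjusted p of 0.028. DMM vehicle library 32 lay below every drug library, and the other DMM vehicle libraries lay above them all. Mx1 had 1.27, 1.18, 1.54, 3.55 and 0.357 CPM with the drug and a log2 fold change of -1.78 (SE 0.56). Ifit3b had 11.7, 14.04, 12.4, 13.7 and 4.91 CPM and -0.80 (SE 0.26). Igtp (chr11:58090382-58098417), an immunity-related GTPase, had 27.2, 26.6, 22.3, 28.1 and 22.6 CPM against 32.9, 48.7, 46.97, 28.00 and 33.3 in vehicle, for -0.58 (SE 0.18). None of the 4 passed without DMM vehicle library 34, and none passed without DMM AP20187 library 60 or library 62. Their fitted changes in naive mice were 0.12 for Mx1, -0.37 for Rsad2, 0.19 for Ifit3b and 0.02 for Igtp, and none passed there.

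**Figure D4:**
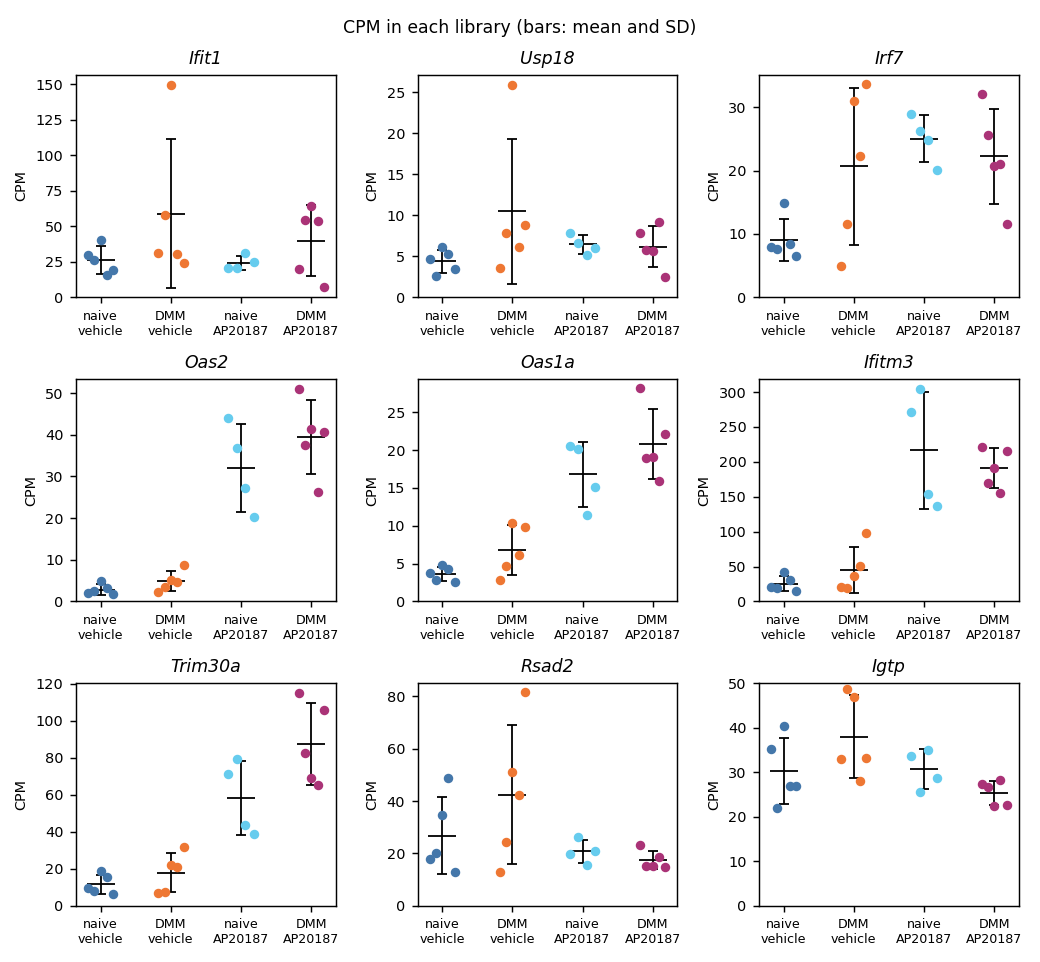
CPM (vertical axes, linear from 0) of 9 interferon-stimulated genes in each library of the 4 groups, with points in order of sample number and bars for the mean and SD. Oas2, Oas1a, Ifitm3 and Trim30a are higher in both AP20187 groups than in any vehicle library, whereas Ifit1 and Usp18 have 1 high point, DMM vehicle sample 34.

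Markers of blood and marrow cells went both ways with the drug. Of all tested genes, 11.3% were higher and 12.4% lower with the drug in DMM mice, and 8.61% and 2.57% in naive mice. A single marker called in a list of 6 to 9 is about what these shares give, and is not read as a change of those cells. The neutrophil and precursor marker sum was 6942 to 25750 CPM with AP20187 and 361 to 7213 CPM with vehicle, and 8 of its 11 markers rose in DMM mice and 9 of 11 in naive mice. Monocyte marker sums were 1643 to 8622 CPM with the drug and 193 to 1677 CPM with vehicle, but single markers went both ways: 3 of 5 rose and 1 (Ccr2) fell in DMM mice, and 2 of 5 rose and 1 (Ccr2) fell in naive mice. Macrophage marker sums were 228 to 968 CPM in DMM AP20187 and 444 to 753 CPM in naive AP20187, with 1 of 9 markers higher in DMM mice and 3 of 9 in naive mice and none lower. Of 9 B lineage markers, 8 fell in DMM mice and 7 in naive mice. Of 6 plasmacytoid dendritic markers, 0 passed in DMM mice (median 0.13) and 1 rose in naive mice (0.65), and of 8 T and NK markers 1 rose in each (medians -0.38 and 0.42). Of 7 erythroid markers, 5 fell in DMM mice, with a median of -1.87, and all 7 were negative without passing in naive mice, with a median of -1.05. Of 8 sensory neuron markers, 6 fell in DMM mice, with a median log2 fold change of -1.37, and the median was -0.72 in naive mice, where none passed. Of 4 Schwann cell markers, 2 fell in DMM mice and none passed in naive mice. Of 5 endothelial markers, 3 rose in DMM mice, with a median of 1.12, and 2 rose in naive mice, with a median of 1.29. Skeletal muscle marker sums were 1501 to 2311 CPM in naive AP20187 and 11.5 to 408 CPM in naive vehicle, where 2 of 6 markers rose. In DMM mice all 6 muscle markers were negative with the drug, with a median of -2.87, and 1 fell. The part of these cells in the changes of the 42 genes was not tested.

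Within DMM AP20187 the libraries differed too. Library 62 had the lowest mean log2 CPM over the 42 genes of its group, 4.04, against 4.53 to 4.70 in the other 4. It was the lowest of the group for 23 of the 42 genes, with 7.27 CPM of Ifit1 and 2.50 CPM of Usp18, yet it held 40.6 CPM of Oas2 and the largest neutrophil marker sum, 25750 CPM. How often it was the lowest over all tested genes was not counted.

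With AP20187 in both arms, DMM against naive gave 0 of the 42 genes at an adjusted p under 0.05, against 0.702% of all tested genes, and 0 at an unadjusted p under 0.05 by edgeR and by DESeq2, against 16.7% of all genes by edgeR. Limma voom called 0, with 3 at an unadjusted p under 0.05. With 1 library left out, 0 to 2 of the 42 reached an unadjusted p under 0.05 by edgeR. The median log2 fold change was -0.06, against -0.01 over all genes, and 19 of the 42 were positive, against 49.2% of all genes. With limma on log2(FPKM + 1) and log2(FPKM + 0.1) the median was above 0, at 0.07 and 0.08, and 26 and 27 were positive. All 6 skeletal muscle markers were lower in every DMM library than in any naive one in this comparison, without passing, with a median of -4.64, and their part was not tested. The smallest unadjusted p of the 42, 0.097, was that of Eif2ak2, which had 50.9, 50.3, 43.9, 56.5 and 53.8 CPM in DMM AP20187 and 41.5, 37.4, 45.2 and 29.9 in naive AP20187, with a log2 fold change of 0.41 (SE 0.23). Oasl2 followed with -0.46 (SE 0.29), Ifi35, a leucine zipper protein, with 0.41 (SE 0.26), Ifi27 with 0.37 (SE 0.24) and Cmpk2, a mitochondrial nucleotide kinase, with 0.20 (SE 0.14).

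The test of the difference itself, the interaction of surgery and drug, asks whether the drug comparison differed between DMM and naive mice. None of the 42 passed, against 0.114% of all tested genes, and 12 of the 42 had an unadjusted p under 0.05, against 7.67% of all genes. DESeq2 and limma voom called 0 as well, each with 12 at an unadjusted p under 0.05. Limma on log2(FPKM + 1) and log2(FPKM + 0.1) also called 0, with 5 and 4 at an unadjusted p under 0.05. Fitted interactions were negative for 40 of the 42, while 43.3% of all genes had a positive one, with a median of -0.65 against -0.08 over all genes. On log2(FPKM + 1) 31 were negative, with a median of -0.30, and on log2(FPKM + 0.1) 33 were negative, with a median of -0.48. The marker lists had negative medians as well, and no marker passed. Negative were all 8 sensory neuron (median -0.57), 4 satellite glia (-0.56), 4 Schwann (-0.60), 7 erythroid (-0.98), 5 endothelial (-0.29) and 6 skeletal muscle markers (-6.34), 10 of 11 neutrophil (-0.60), 8 of 9 macrophage (-0.47), 5 of 6 plasmacytoid dendritic (-0.65), 5 of 8 T and NK (-0.57), 3 of 5 monocyte (-0.54) and 6 of 9 B lineage markers (-0.21). The 6 muscle markers each had an unadjusted p under 0.05, and the part of these cells was not tested. A negative value means that the signed log2 fold change with the drug was lower in DMM mice than in naive mice, whether it was smaller or of the opposite sign. The 5 smallest unadjusted p belonged to Irgm1 at -0.997 (SE 0.33), Ifit3 at -1.18 (SE 0.43), Gbp3, a guanylate-binding protein, at -1.17 (SE 0.44), Ifit3b at -0.995 (SE 0.38) and Oasl2 at -1.02 (SE 0.39). For Irgm1 the drug difference was 1.16 in naive and 0.17 in DMM mice. For the other 4 it was above 0 in naive mice and below 0 in DMM mice, as for Ifit3 (0.43 and -0.75) and Gbp3 (0.51 and -0.66). Of the 42, 6 had an unadjusted p under 0.05 without DMM vehicle library 34 and 7 without DMM AP20187 library 62 or naive vehicle library 2 or 5. There were 19 without naive vehicle library 3 and 20 without DMM vehicle library 32.

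The interferons themselves were close to undetected. Of 21 ligand genes looked for, 18 had 0 counts in every library, among them 13 Ifna genes, for which 3 counts per library is the limit that a count of 0 allows. Ifnb1 had 2 counts in 1 library and Ifnz had 35 counts over 16 libraries, at most 9 in any. Interferon gamma (Ifng) had 61 counts in 5 libraries. These were 16 in DMM vehicle 34, 12 in DMM AP20187 58, 13 in naive AP20187 1, and 12 and 8 in naive vehicle 3 and 4. Of these 5 libraries, DMM vehicle 34, DMM AP20187 58 and naive vehicle 3 had the highest mean of the 42 genes in their groups, and naive AP20187 1 and naive vehicle 4 did not.

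Receptors and kinases were expressed throughout. Ifngr2, the receptor gene with the highest mean CPM (not scaled by length), did not pass in any comparison, with log2 fold changes of 0.03 for DMM under vehicle and 0.06 for the drug in naive mice. In DMM mice with the drug, 3 of the 6 receptor genes rose, against 11.3% of all tested genes (Ifnar2 at 0.99, Ifngr1 at 1.05 and Ifnlr1, the lambda receptor, at 2.29), and in naive mice 2 did (Ifnar2 and Ifnlr1), against 8.61%. Of the kinases, Jak2 rose in both (0.78 and 0.66) and Tyk2 in DMM mice (0.69), while Jak1 had -0.38 and -0.25 without passing. Of 8 inhibitors, 3 rose in both drug comparisons, against the same 11.3% and 8.61% of all genes: Socs3, which blocks JAK signalling, at 2.48 in DMM and 2.17 in naive mice, and the phosphatases Ptpn2 and Ptpn6. Under vehicle, DMM against naive gave 0 of the 6 receptor genes and 0 of the 8 inhibitors by edgeR, also at an unadjusted p under 0.05, against 0% of all genes adjusted and 1.66% unadjusted.

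Of 13 genes that act upstream of interferon, 6 rose and 2 fell with the drug in DMM mice, against 11.3% and 12.4% of all tested genes, and 5 rose in naive mice, against 8.61%. Ikbke, the kinase that activates IRF3, rose by 2.98 and 2.43, the adaptor Myd88 by 2.35 and 1.99, and the DNA sensor Cgas by 2.03 and 1.96. Tlr9 and Irf5 fell in DMM mice, at -1.53 and -1.21. Tbk1, the other kinase that activates IRF3, had -0.04 and -0.17 and did not pass. A further 41 tested interferon-stimulated genes outside the 42 had 10 higher and 2 lower with the drug in DMM mice (11.3% and 12.4% of all genes) and 14 higher in naive mice (8.61% of all genes), led by Ifitm1 at 5.52 and 6.24. For DMM under vehicle 0 of the 41 passed by edgeR, 4 had an unadjusted p under 0.05 (1.66% of all genes), 38 were positive (53.6% of all genes) and the median was 0.50. Of 18 other interferon gamma targets, 1 (Cd274, the ligand of PD-1, at -0.72) fell and none rose in DMM mice with the drug (12.4% and 11.3% of all genes), and 3 rose in naive mice (8.61%). The genes named in this paragraph and the one before, other than Ifngr2, Jak1 and Tbk1, and of the 42 genes Ifit1, Oasl1, Irf9, Bst2, Mx2, Samhd1, Gbp7, Iigp1, Ifi44 and Xaf1, lie outside the rule by which genes were named and were chosen after their values were seen.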

How the data were processed

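RNA of pooled L3-L5 ganglia was sequenced as stranded poly(A) libraries, per the labels' protocols. The authors deposited a separate count matrix and a table, used here, with raw counts and FPKM (fragments per kilobase of transcript, scaled by depth) for 36682 genes in 19 libraries. The submitters' processing notes name cutadapt, HISAT2, StringTie and GRCm39; versions and roles are not given in the sources used here. Libraries held 60984830 to 74691396 counts, and the lowest count of a gene of the list was 17.

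The counts were fitted with edgeR 4.0.16 (R 4.3.3) for all 4 groups together, with TMM scaling, filterByExpr (minimum count 10) and the quasi-likelihood test. P-values were adjusted by Benjamini-Hochberg over 22778 genes, with a threshold of 0.05. Standard errors are the log2 fold change divided by the root of F. CPM are TMM-scaled, and log2 CPM used a prior count of 2. The deposited FPKM were used for levels and, with limma 3.58.1 on log2(FPKM + 1) or log2(FPKM + 0.1), as alternatives. Both of these kept genes with at least 0.1 FPKM in 4 libraries. Other alternatives were DESeq2 1.42.0, limma voom with sample weights, other scaling, no filter, fewer groups and fewer libraries. The code was tested on simulated data.

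Per comparison, genes that passed were named, up to 12 by smallest p, or the 5 with the smallest p where fewer than 5 passed, and per role the gene with the highest mean CPM. The genes and all lists were chosen with earlier results of these data known, so no list was tested. Promoters of RefSeq on GRCm38.p6 were matched by symbol. A gene of the pathway lists is not reported here.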

Additional observations from a re-analysis of the deposited data

Results flagged for a closer look

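Within groups of 4 or 5 libraries, 11 of 132 sets of values held a library far from the others by Dixon's gap test, which chance gives in about 1 of 20 sets. In naive vehicle, library 3 was high for Irf7 (14.8 CPM, next 8.37), Rtp4 (9.0001, next 6.26) and Ifit2 (57.5, next 46.6), and library 5 was low for Ddx58 (24.6 CPM, next 35.1). In DMM vehicle, library 34 was high for Usp18 (25.95 CPM, next 8.88) and Ddx58 (67.5, next 41.2). In naive AP20187, library 5 was low for Irgm1 (25.5 CPM, next 33.4) and Isg15 (3.82, next 8.01). In DMM AP20187, library 62 was low for Irgm1 (20.6 CPM, next 25.3), Ifit3b (4.91, next 11.7) and the mean log2 CPM over the 42 genes (4.04, next 4.53).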

How the results depend on the processing

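For DMM against naive under vehicle, the count that passed was 0 in every alternative run except DMM vehicle samples 63 and 64 alone. There it was 5, with adjusted p by edgeR of 0.0485 to 0.0491. The median log2 fold change was 0.45 to 0.81 with 1 library left out. For AP20187 in DMM mice, the count of 13 became 23 with limma voom, 7 with only the 2 groups of the comparison and 7 with DMM vehicle samples 63 and 64 alone, and leaving out 1 library gave 6 (without DMM AP20187 60) to 17 (without DMM vehicle 64). Oas2, Oas1a and Trim30a passed in every alternative run, and Ifitm3, Oas1g and Oas3 in all but DMM vehicle samples 63 and 64 alone. For AP20187 in naive mice, the count of 19 was 11 (without naive AP20187 3) to 20 with 1 library left out. The median for DMM against naive under AP20187 changed sign, from -0.11 to 0.03 with 1 library left out. Of the genes refitted singly (up to 12 a comparison that passed, by smallest p), none that passed changed sign; the other genes named as passing, pathway genes included, were not refitted singly. The cause of these differences was not tested. Naive samples share numbers between drug and vehicle; with the number as a replicate block in a fit of naive libraries alone, 21 of the 42 passed. Deviations of same-numbered libraries had correlations of 0.0235, 0.301, -0.0822 and 0.183, and those of differently numbered ones -0.262 to 0.199. So few values cannot decide whether the numbers pair the libraries, and the main fit used no pairing.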
